A study of Mus musculus with 3 samples.

Results

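Beta-defensins are small cationic peptides that epithelia secrete against microbes, and their genes (Defb) lie in clusters. Some draw in immune cells as well, and many members of the family are known from the epididymis, where they coat maturing sperm. WAP-domain proteins carry the four-disulfide core first described in whey acidic protein, and the family (Wfdc) holds secreted inhibitors of serine proteases and antibacterial proteins. The genes described here are those whose array name is Defb or Wfdc followed by a digit. They comprise 33 genes measured by 37 probes, of 27670 genes and 41174 probes on the array. Of these, 26 were Defb genes (28 probes) and 7 were Wfdc genes (9 probes).

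They were measured in the utero-tubular junction, the passage that joins uterus and oviduct, of adult CD-1 mice. The 3 groups were females mated with normal males, females mated with vasectomized males, whose ejaculate lacks sperm, and females that were not mated. All females were in estrus. Each group was 1 pool of total RNA from 10 females on 1 single-colour Agilent array labelled with Cy3, so nothing in the data gives the spread between animals and no difference below carries a test. How long after mating the tissue was taken is not stated in the labels. In pooled tissue, more cells of a type and more RNA per cell cannot be told apart.

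The vasectomized mated array was the dimmest. The 75th percentile of its signals was 295, against 708 on the normal mated and 874 on the not mated array. Levels are therefore given as log2 of the processed signal relative to that percentile on the same array, with the signal itself, in the scanner software's linear units, where a level is near background. The spike-in control probes ran the other way, with a mean log2 signal of 10.64 on the normal mated, 11.54 on the vasectomized mated and 10.47 on the not mated array. Scaling to them instead took the median log2 ratio of all genes from 0.17 to -2.48 for vasectomized mated versus not mated. For normal versus vasectomized mated it went from -0.27 to 1.90. This scaling was added after the data were seen. For the Defb and Wfdc genes, each ratio past 2-fold whose direction it turns is named where the ratio is given. The oviduct glycoprotein gene Ovgp1, which marks the labelled tissue, had signals of 227821, 107114 and 234120 on the normal mated, vasectomized mated and not mated arrays. Probes of one gene that disagree are given together, and the median SD of log2 signal between replicate spots of a probe was 0.0541 (195 probes), 0.0644 (189 probes) and 0.0573 (189 probes) on the same arrays, which covers hybridisation and scanning only.

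Most beta-defensin probes were not detected in any pool, while most Wfdc probes were. The scanner software called 15 of the 37 probes well above background for normal mated, 14 for vasectomized mated and 12 for not mated females. Those are 40.5%, 37.8% and 32.4%, against 70.1%, 65.2% and 67.4% of all probes. For the Defb probes the counts were 8, 7 and 5 of 28. For the Wfdc probes they were 7 of 9 on each array. By gene, 14 of the 33 were detected on at least 1 array, 8 of 26 Defb and 6 of 7 Wfdc genes, against 73.3% of all genes. There were 9 genes detected on all 3 arrays, 2 on 2 arrays and 3 on 1 array.

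**Figure D1:**
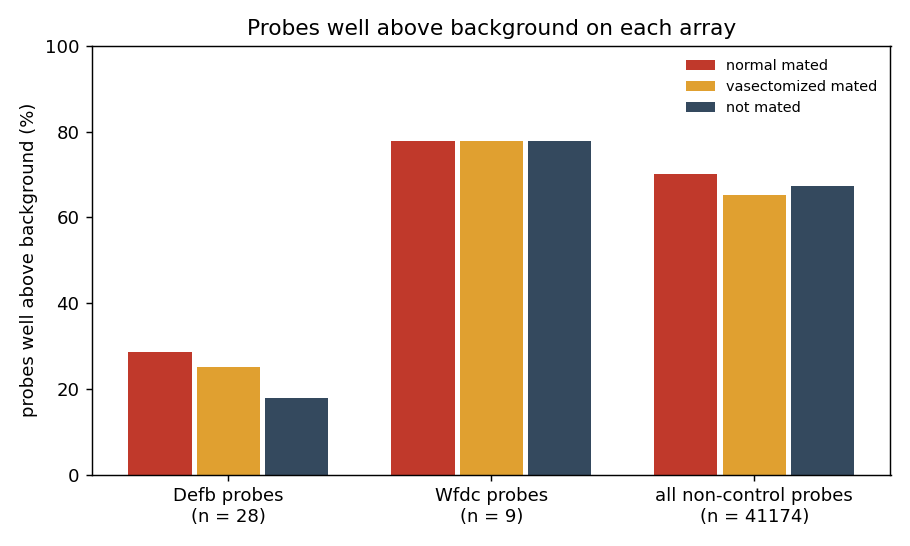
Share of probes called well above background (percent, vertical axis) for the Defb probes, the Wfdc probes and all non-control probes, with bars for the normal mated, vasectomized mated and not mated array (1 pool of 10 females each). The Defb bars stand at 28.6%, 25% and 17.9%, the Wfdc bars at 77.8% on every array and those of all probes between 65.2% and 70.1%.

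The other 19 genes were not well above background on any array. They were Defb5, Defb6, Defb7, Defb8, Defb10, Defb12, Defb13, Defb15, Defb34, Defb35, Defb36, Defb37, Defb38, Defb39, Defb40, Defb41, Defb42, Defb50 and Wfdc5. Their 20 probes had signals of 1.35 to 6.11 on the normal mated, 1.20 to 3.66 on the vasectomized mated and 2.68 to 8.68 on the not mated array. The dimmest probe of any gene called well above background had signals of 6.59, 5.80 and 13.2 there. For these genes the data give only an upper bound on each array.

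The detected genes lay in several clusters. By the probe positions in the file headers' build mm7, 20 Defb genes lay in the cluster on chromosome 8 between 18951697 and 20731475, and 5 of them were detected on some array (Defb1, Defb2, Defb3, Defb9 and Defb11). Defb14 was placed on an unordered part of the same chromosome (chr8_random:1797591-1797650) and was detected on all 3 arrays. Of the 3 Defb genes on chromosome 2, between 152279702 and 152353373, Defb19 and Defb29 were detected and Defb36 was not. The single Defb genes on chromosomes 1 and 14 (Defb41 and Defb42) were not. Of 6 Wfdc genes on chromosome 2, between 163918523 and 164484817, 5 were detected, as was Wfdc1 on chromosome 8. The files do not say which exon or UTR a probe lies in.

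Ratios could be formed for 12 of the 33 genes in each comparison, which passed because at least 1 of the 2 arrays detected them. A gene counts as different at 2-fold, and "at least" marks a ratio whose dimmer array did not detect the probe. In normal mated versus not mated, 6 of the 12 genes were higher and 2 lower, where 9.84% of all genes compared were higher, 13.2% lower and 23.1% different in either direction. In vasectomized mated versus not mated, 7 were higher and 2 lower, where 25.7% and 16.8% of all genes were, 42.5% in either direction. With normal versus vasectomized mated, 0 were higher and 5 lower, where 14.9% and 27.8% of all genes were, 42.7% in either direction. The median log2 ratios of the 12 were 0.80, 2.15 and -0.38, beside -0.05, 0.17 and -0.26 over all genes compared, and the members' medians in both comparisons with vasectomized mated females change sign with spike-in scaling (-0.49 and 1.69). The median of normal versus vasectomized mated also does so under quantile normalization, at 0.0086. The comparisons share arrays, so their counts are not independent of each other. Across the 3 comparisons, 10 of the genes passed 2-fold at least once, 5 of each family.

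**Figure D2:**
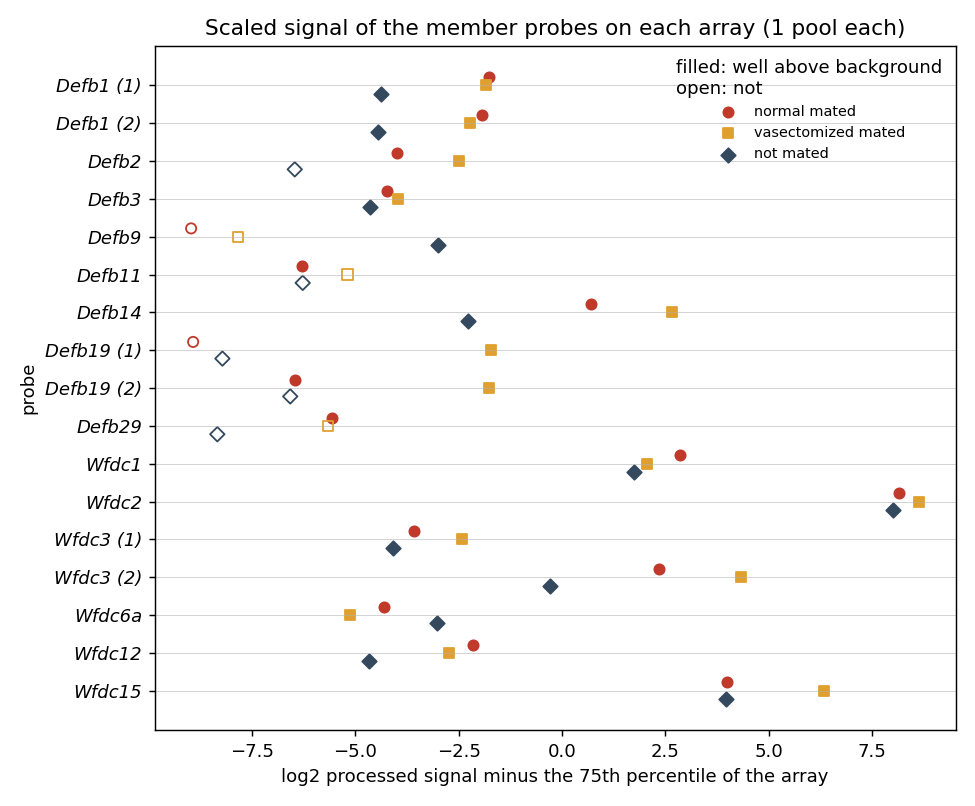
Level of each detected probe (log2 processed signal minus the array's 75th percentile, horizontal axis) on the normal mated (circles), vasectomized mated (squares) and not mated (diamonds) array, filled where well above background and open where not. Each point is 1 pool. Defb14 and the brighter Wfdc3 probe step up over the not mated array on both mated arrays, and the squares lie well to the right of the circles for Defb2, Defb14, both Defb19 probes, both Wfdc3 probes and Wfdc15, an order of the mated arrays that spike-in scaling turns for Defb2, Defb14 and Wfdc3.

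Defb14, one of the beta-defensins known in mice to be induced at inflamed epithelia, was higher after both matings. It is the mouse counterpart of human beta-defensin 3, and its peptide is a ligand of the chemokine receptor CCR6. Its signals were 1158 on the normal mated, 1849 on the vasectomized mated and 182 on the not mated array, which are levels of 0.71, 2.65 and -2.27. It was 7.87-fold higher in normal mated than in not mated females and 30.2-fold higher in vasectomized mated than in not mated females. These ratios stood at percentiles 99.2 and 99.8 of all genes measured on both arrays. Under the other scalings and background correction its log2 ratios stayed between 2.61 and 3.15 in the first comparison and between 4.42 and 4.95 in the second, and with spike-in scaling they were 2.50 and 2.27. In normal versus vasectomized mated females Defb14 was 3.84-fold lower, a difference that disappeared and changed sign with spike-in scaling (log2 ratio 0.23).

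Defb2, which endotoxin induces in mouse airways, had signals of 45.0 and 52.4 on the normal and vasectomized mated arrays and was not well above background at 9.93 on the not mated array. It was at least 4.19-fold higher in normal mated and at least 11.7-fold higher in vasectomized mated than in not mated females. The first of these fell just under 2-fold with normexp background correction (log2 ratio 0.91), and the second did with spike-in scaling (also 0.91). In normal versus vasectomized mated females it was 2.80-fold lower (log2 ratio -1.49), with the sign turned by spike-in scaling (0.69).

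Defb3, another inducible mouse beta-defensin, had levels of -4.24, -3.95 and -4.64 on the normal mated, vasectomized mated and not mated arrays. All 3 of its ratios were within 2-fold. For vasectomized mated versus not mated, the log2 ratio of 0.68 became 1.11 with normexp correction and -1.96 with spike-in scaling. For normal versus vasectomized mated, -0.28 became 1.89 with spike-in scaling. The transcripts listed for its probe also include Defb4 and Defb8, so its signal cannot be given to Defb3 alone. The probe of Defb8 itself was not above background.

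Defb1, the counterpart of the constitutive human beta-defensin 1, was higher after both matings under the 75th percentile scaling. Its levels were -1.77 in normal mated, -1.84 in vasectomized mated and -4.37 in not mated females, from signals of 207, 82.2 and 42.1. It was 6.07-fold higher in normal mated and 5.79-fold higher in vasectomized mated than in not mated females, the second with a sign that spike-in scaling turns (log2 ratio -0.11). The 2 mated arrays differed by 0.07 on the log2 scale, by -0.21 with normexp correction and by 2.24 with spike-in scaling. A second probe, which shares 49 of 60 bases with the first, gave log2 ratios of 2.52, 2.23 and 0.29 for the same 3 comparisons. Spike-in scaling turns its ratio of 2.23 as well.

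Defb19 stood apart in being bright on the vasectomized mated array alone. It lies with Defb29 and Defb36 in the chromosome 2 cluster. Its brighter probe had signals of 8.11, 87.2 and 9.20 on the normal mated, vasectomized mated and not mated arrays, and the other probe 1.47, 89.1 and 2.95. The first of these probes was just above background in normal mated females and the other was not, and neither was in not mated females. Defb19 was at least 19.5-fold higher in vasectomized mated than in not mated females and 25.8-fold lower in normal than in vasectomized mated females. Both directions held under every scaling tried, with log2 ratios of 1.64 and -2.52 at spike-in scaling. No fold could be given for normal mated versus not mated. Both probes overlap over 40 of 60 bases, so they are not independent measurements of the gene.

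Defb9 showed the opposite pattern, being detected only in females that were not mated. Its signals were 1.42, 1.30 and 109 on the normal mated, vasectomized mated and not mated arrays. It was at least 13.4-fold lower in normal mated and at least 6.33-fold lower in vasectomized mated than in not mated females. The second bound shrank to a log2 ratio of -0.08 with normexp correction, which adds an offset of 50 to each signal. Defb29 and Defb11 were called above background only on the normal mated array, at signals of 15.1 and 9.03. The bound for Defb29 lay within 2-fold (log2 ratio 0.49 against not mated), and Defb11, with 8.09 and 11.3 on the vasectomized mated and not mated arrays, allowed no fold.

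**Figure D3:**
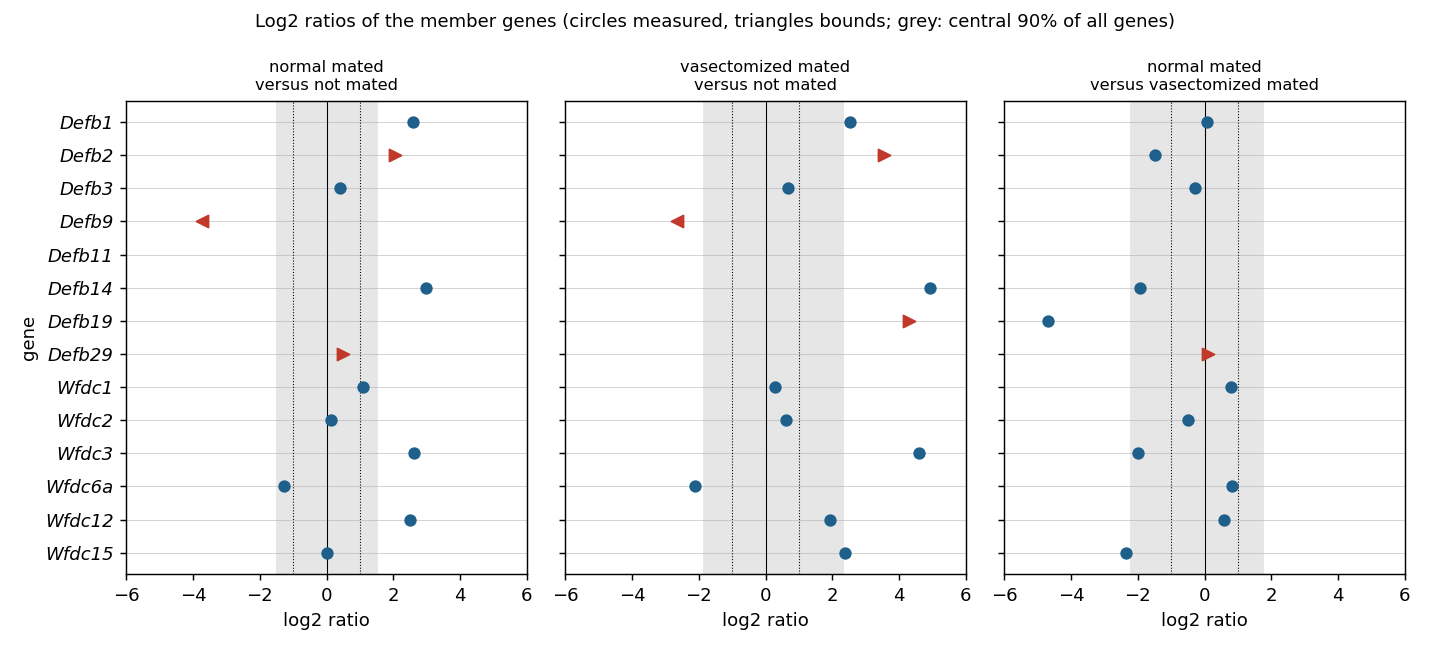
Log2 ratio of each detected gene (horizontal axis) in normal mated versus not mated, vasectomized mated versus not mated and normal versus vasectomized mated females, 1 pool each. Circles are ratios with both arrays above background, triangles are bounds, dotted lines mark 2-fold and the grey band runs from percentile 5 to percentile 95 of all genes. In the first panel Defb1, Defb14, Wfdc3 and Wfdc12 are circles right of the band's end at 1.51. In the second panel Defb14 and Wfdc3 lie near the right edge at 4.92 and 4.60. In the right panel no gene passes 2-fold to the right, where 14.9% of all genes compared do. With spike-in scaling 8 of the genes do, where 15373 of 19498 genes compared on the array do.

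Among the WAP-domain genes, Wfdc2 was bright in every pool and lay within 2-fold in every comparison under the 75th percentile scaling. Wfdc2 encodes HE4, a secreted protein known in humans as a serum marker of ovarian cancer. Its signals were 201016, 116967 and 225859 on the normal mated, vasectomized mated and not mated arrays, none flagged as saturated. The log2 ratios were 0.13, 0.62 and -0.48 for normal mated versus not mated, vasectomized mated versus not mated and normal versus vasectomized mated. All 3 change sign under quantile, cyclic loess or spike-in scaling, and with the last the 2 comparisons with vasectomized mated females pass 2-fold (-2.03 and 1.69).

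Wfdc1 encodes ps20, first described as a growth inhibitor from prostate stroma. Its levels were 2.85 in normal mated, 2.05 in vasectomized mated and 1.75 in not mated females. It was 2.15-fold higher in normal mated than in not mated females, the gene past the threshold that lay nearest to it, and it dropped below 2-fold with spike-in scaling (log2 ratio 0.63) and with the percentile taken over detected probes (0.9996). In vasectomized mated versus not mated the log2 ratio was 0.30, against -2.35 with spike-in scaling. In normal versus vasectomized mated it was 0.80, against 2.98 with spike-in scaling.

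Wfdc3 was higher after both matings, by far more in 1 of its 2 probes. The brighter probe (mm7, chr2:164472012-164472071) had signals of 3585, 5905 and 720 on the normal mated, vasectomized mated and not mated arrays, levels of 2.34, 4.32 and -0.28. By that probe Wfdc3 was 6.14-fold higher in normal mated and 24.3-fold higher in vasectomized mated than in not mated females, and with spike-in scaling the log2 ratios were still 2.14 and 1.96. It was 3.96-fold lower in normal than in vasectomized mated females, turning to a log2 ratio of 0.19 with spike-in scaling. The dimmer probe (mm7, chr2:164484758-164484817) had levels of -3.59, -2.42 and -4.08, and its log2 ratios were 0.50, 1.66 and -1.17. Spike-in scaling turns the direction of both of its ratios with vasectomized mated females. The 2 probes share no base, and neither probe's accession is in the RefSeq gene table used here, so the name rests on the array's annotation.

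Wfdc12 and Wfdc15 encode single-domain WAP proteins described in mice as antibacterial. Wfdc12 had levels of -2.15 in normal mated, -2.73 in vasectomized mated and -4.65 in not mated females. It was 5.69-fold higher in normal mated and 3.81-fold higher in vasectomized mated than in not mated females, the second turning with spike-in scaling (log2 ratio -0.72). Wfdc15, now named Wfdc15b, had signals of 11157, 23800 and 13608, which are levels of 3.98, 6.34 and 3.96 on the normal mated, vasectomized mated and not mated arrays. Normal mated and not mated females thus lay 0.02 apart, or -0.46 with spike-in scaling. Vasectomized mated females were 5.19-fold above not mated females, a direction that spike-in scaling turns (log2 ratio -0.27). Normal mated females were 5.13-fold below vasectomized mated females, and only -0.19 below on the log2 scale with spike-in scaling.

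Among the Wfdc genes, Wfdc6a was the one that passed 2-fold on the lower side after mating. Its signals were 35.7, 8.44 and 107 on the normal mated, vasectomized mated and not mated arrays. It was 2.44-fold lower in normal mated and 4.29-fold lower in vasectomized mated than in not mated females. Normexp correction left log2 ratios of -0.61 and -0.00, both within 2-fold, and cyclic loess left -0.97 in the first comparison. In normal versus vasectomized mated females its log2 ratio was 0.81, the value nearest below the threshold in that comparison. It ran from -0.61 to 1.12 under the other scalings and background correction and was 2.98 with spike-in scaling.

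Promoters are shown for 4 WAP-domain genes of chromosome 2, Wfdc3, Wfdc12 and Wfdc15b, which passed 2-fold on the higher side in vasectomized mated versus not mated, and Wfdc2, which did not pass it. Wfdc6a, which passed on the lower side, has 2 overlapping windows that hold the same CCAAT box and are not shown. Each is RefSeq sequence of build GRCm38.p6, 250 bases before to 50 after the annotated start, read 5′ to 3′ on the gene's strand, with motif matches in capitals. They are chr2:164743218-164743517 (minus strand) for Wfdc3, chr2:164190509-164190808 (minus) for Wfdc12, chr2:164221614-164221913 (minus) for Wfdc15b and chr2:164562465-164562764 (plus) for Wfdc2.
Wfdc3: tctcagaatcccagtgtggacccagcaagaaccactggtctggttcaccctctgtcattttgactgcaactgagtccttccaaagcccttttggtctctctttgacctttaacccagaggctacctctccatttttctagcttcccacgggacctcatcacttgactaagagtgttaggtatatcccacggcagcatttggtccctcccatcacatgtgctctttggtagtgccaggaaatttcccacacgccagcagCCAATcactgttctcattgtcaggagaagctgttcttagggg
Wfdc12: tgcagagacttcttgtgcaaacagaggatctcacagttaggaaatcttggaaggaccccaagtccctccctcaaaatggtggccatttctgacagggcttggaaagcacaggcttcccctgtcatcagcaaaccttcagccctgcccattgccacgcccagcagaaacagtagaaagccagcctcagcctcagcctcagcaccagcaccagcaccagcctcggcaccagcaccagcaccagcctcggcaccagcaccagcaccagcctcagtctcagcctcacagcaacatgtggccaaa
Wfdc15b: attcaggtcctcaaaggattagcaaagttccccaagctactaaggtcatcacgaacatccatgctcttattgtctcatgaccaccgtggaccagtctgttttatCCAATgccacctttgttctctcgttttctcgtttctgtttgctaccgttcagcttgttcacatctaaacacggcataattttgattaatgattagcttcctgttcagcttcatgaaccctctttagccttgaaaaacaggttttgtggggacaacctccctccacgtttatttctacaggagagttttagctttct
Wfdc2: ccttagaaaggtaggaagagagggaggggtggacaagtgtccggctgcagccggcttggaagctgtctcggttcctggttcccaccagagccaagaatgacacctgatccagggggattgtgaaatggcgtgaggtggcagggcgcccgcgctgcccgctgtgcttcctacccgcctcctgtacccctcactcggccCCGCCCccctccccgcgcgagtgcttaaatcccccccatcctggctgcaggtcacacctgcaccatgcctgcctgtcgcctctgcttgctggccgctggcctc
The windows were searched on both strands for 7 motifs, which were the kappaB site and the estrogen response element, and the letters TGANTCA for AP-1, TATAAA for the TATA box, TTCNNNGAA for STAT factors, GGGCGG for the GC box and CCAAT for the box of that name. No motif's letters hold those of another. Wfdc3 held a CCAAT box at bases 9 to 13 after the start and Wfdc15b one at bases -146 to -142. Wfdc2 held a GC box on the opposite strand at bases -53 to -48, and Wfdc12 held no match. Of the 33 genes, 21 had a window, 9 of those 21 held a CCAAT box and 2 a GC box, against 37.4% and 35.7% of 32851 windows of the same length. The kappaB motif was in 1 of the 21 (Defb6, not detected here) and in 8.46% of all windows, AP-1 in 1 (Defb11) and in 7.81%, STAT in 2 (Defb29 and Defb41) and in 8.30%. The exact letters TATAAA were in 2 (Defb15, and Defb7 on the opposite strand at bases -113 to -108) and in 13.6%. The estrogen response element was in 0 and in 0.0700%. The windows of Defb3, Defb5, Defb6, Defb7 and Defb8 hold the letters TATATAAG, which the search for TATAAA does not count. A match describes the letters searched and does not show a bound site, and its absence does not show that a promoter lacks a TATA box.

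Genes of the same 2 families whose array names fall outside the naming rule gave further values. The table of current symbols placed 5 more genes with 6 probes in these families. Wfdc18, listed on the array as Expi, had signals of 49183, 29855 and 20225 on the normal mated, vasectomized mated and not mated arrays, log2 ratios of 1.58, 2.13 and -0.55, the last 2 turning to -0.51 and 1.63 with spike-in scaling. Wfdc21 was at least 9.90-fold higher in normal mated and at least 17.4-fold higher in vasectomized mated than in not mated females, with signals of 106, 77.9 and 7.12. Wfdc15a had signals of 203, 376 and 259 and log2 ratios of -0.05, 2.10 and -2.16, beside those of 0.02, 2.37 and -2.36 for Wfdc15, and with spike-in scaling its second ratio turned to -0.54 and its last to 0.02. Defb20 was 2.47-fold lower in normal mated than in not mated females at signals of 7.12 and 21.7, and Defb22, at 9.47 in normal mated females and not above background elsewhere, allowed no fold.

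Slpi, the secreted leukocyte protease inhibitor with WAP domains, was higher after both matings. Its signals were 18068, 7464 and 3512 on the normal mated, vasectomized mated and not mated arrays. It was 6.35-fold higher in normal mated and 6.30-fold higher in vasectomized mated than in not mated females, though with spike-in scaling the second log2 ratio was 0.01. Between both matings it lay 0.01 apart on the log2 scale, or 2.18 with spike-in scaling. Of 5 such WAP-related genes compared, 2 were higher and 1 lower in normal mated versus not mated. In vasectomized mated versus not mated, 2 were higher and 2 lower (0 higher and 3 lower with spike-in scaling, 3 higher and 0 lower with normexp correction). Wfikkn2 was 5.72-fold lower in normal mated than in not mated females, and Eppin, whose product binds sperm in humans, lay at -0.99. In vasectomized mated versus not mated the log2 ratios of Wfikkn2 and Eppin were -1.57 and -1.29.

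Other secreted antimicrobial genes and the known inducers of beta-defensins were counted in the same way. Of 13 other antimicrobial genes compared, 8 were higher and 0 lower in normal mated versus not mated, with a median log2 ratio of 1.72. In vasectomized mated versus not mated, 9 were higher and 0 lower, with a median of 1.92 that spike-in scaling takes to -0.03. S100a9, S100a8, Lcn2 and Ccl28 led in normal mated females, with log2 ratios of 8.96, at least 7.70, 6.25 and 3.89. Of 18 inducers and receptors compared in normal mated versus not mated, 9 were higher and 2 lower (median 0.85). Of 19 in vasectomized mated versus not mated, 12 were higher and 2 lower (median 1.73), and with spike-in scaling 4 of 17 were higher and 8 lower (median -0.92). The cytokine Il1b, which induces beta-defensins in epithelial cells, had signals of 1903, 1473 and 60.7 on the normal mated, vasectomized mated and not mated arrays. Tnf, Il17c and Il1a followed in normal mated females at log2 ratios of 4.65, at least 4.11 and at least 4.02. The alpha-defensins, a related family of Paneth cells, had 1 of 4 higher and 0 lower in normal mated versus not mated. In vasectomized mated versus not mated, 4 of 5 were higher and 0 lower (0 of 3 higher and 1 lower with spike-in scaling). Of 5 serine proteases, 2 were higher (Prss22 and Prtn3) and 2 lower (Ctsg and Klk1) in normal mated versus not mated, at log2 ratios of 1.24, at least 1.35, -2.19 and -1.26 (0 higher and 2 lower with spike-in scaling). In vasectomized mated versus not mated, 1 was higher and 2 lower (0 higher and 4 lower of 4 with spike-in scaling).

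Markers of cells that could contribute these transcripts moved between the pools as well. Of 8 neutrophil markers compared, 7 were higher in normal mated and 8 in vasectomized mated than in not mated females, and 0 were lower (4 higher and 2 lower in the second comparison with spike-in scaling). The summed signal of the list, not scaled between arrays, was 43046 and 26356 on the normal and vasectomized mated arrays, against 497 on the not mated array. Most of it after mating was S100a9, at 39458, 24509.5 and 97.9 on the same arrays. Elane was not above background on any. Of the 10 epididymis and seminal tract markers, 6 (Lcn5, Lcn8, Adam7, Rnase10, Svs2 and Pate4) were not above background on any array. The other 4 (Sbp, Crisp1, Cst11 and Svs5) were higher in both mated pools (1 of 3 compared in vasectomized mated females with spike-in scaling). The unscaled summed signals of the list were 1162, 376 and 107 on the normal mated, vasectomized mated and not mated arrays. Sbp alone gave 900, 252 and 69.8 of these. All 5 ovary and oocyte markers were higher in vasectomized mated than in not mated females (3 with spike-in scaling). In normal mated versus not mated females 4 of 5 were higher (2 with normexp correction). The summed signals of the ovary and oocyte list were 557, 1501 and 190. Cyp11a1, a steroid-producing enzyme of the ovary, had signals of 55.9, 659 and 7.56, the first 2 above background. All 5 of these markers had their highest signal on the vasectomized mated array, as did Defb2, Defb14, Defb19, the brighter Wfdc3 probe and Wfdc15. That order was not particular to ovary markers. The macrophage markers Adgre1 and Mrc1, the neutrophil marker Mpo and the cytokine gene Il6 had it too, while S100a9 and the macrophage marker Cd68 did not. The part of any of these cells in the values of the Defb and Wfdc genes was not tested.

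Markers of epithelium and other cell types differed between the pools as well. Of 5 simple epithelium markers, 3 were higher in normal mated and 1 in vasectomized mated than in not mated females, with 0 and 1 lower (5 lower in vasectomized mated females with spike-in scaling). Their median log2 ratios were 1.01 and -0.38. With spike-in scaling 1 simple epithelium marker was higher and 0 lower in normal mated females. Quantile normalization gave 0 higher and 3 lower in vasectomized mated females. Of 5 oviduct epithelium markers, 3 were higher after each mating, with 0 and 1 lower. With spike-in scaling 2 were higher and 1 lower in normal mated females, and 0 higher and 4 lower in vasectomized mated females. In the latter, quantile normalization gave 1 higher and 2 lower, and cyclic loess 1 higher and 1 lower. Of 3 uterine gland genes 1 was higher and 2 lower after each mating (0 higher in vasectomized mated females with spike-in scaling). The gland proteases Prss28 and Prss29 were 614-fold and 23.4-fold lower in normal mated than in not mated females, and the transcription factor gene Foxa2 was 3.15-fold higher. Of 4 macrophage markers, 1 was higher in normal mated and 2 in vasectomized mated females, and of 4 testis and sperm markers 0 and 1 were, with 0 lower in either list (2 macrophage and 3 testis genes lower in vasectomized mated females with spike-in scaling). Wap, Csn2 and Csn3 of the mammary gland were not above background on any array. The 7 stratified epithelium genes compared had 2 higher and 0 lower in normal mated and 1 each way in vasectomized mated versus not mated females, and of 7 estrogen and progesterone genes 3 were higher and 3 lower in normal mated and 2 higher and 4 lower in vasectomized mated females. With spike-in scaling these became 0 higher and 6 lower, and 0 higher and 5 lower, in vasectomized mated females.

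The choice of scaling bore on the vasectomized mated ratios more than on the normal mated ones. In the plot of ratios by scaling, every log2 ratio of Defb1, Defb14, Wfdc3 and Wfdc12 in normal mated versus not mated stays right of 2-fold. In vasectomized mated versus not mated, Defb14, Defb19 and Wfdc3 do so under every scaling drawn, while Defb1, Defb2, Wfdc12 and Wfdc15 do so under each except spike-in scaling.

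**Figure D4:**
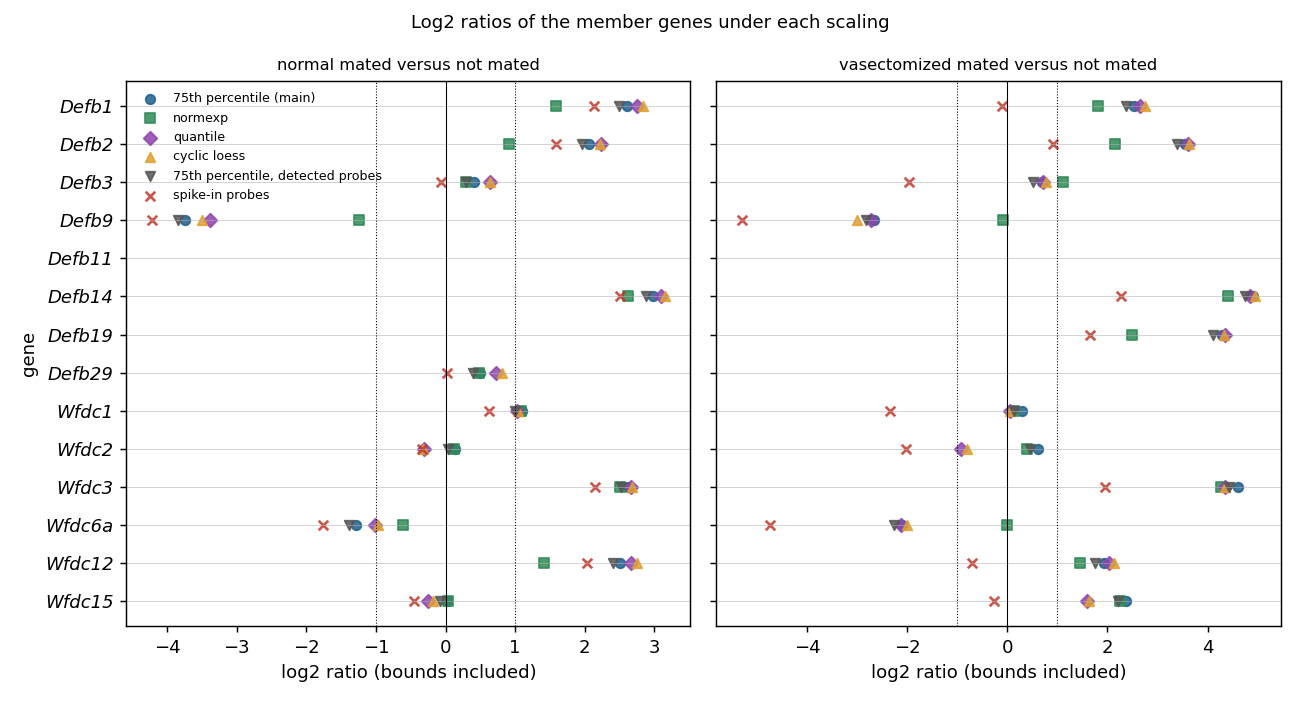
Log2 ratio of each detected gene (horizontal axis, bounds included) under 6 scalings, in normal mated versus not mated (left) and vasectomized mated versus not mated females (right). Dotted lines mark 2-fold. On the left the normexp squares of Defb1, Defb2, Defb9, Wfdc6a and Wfdc12 lie nearest to 0. On the right the crosses of spike-in scaling lie to the left of the other symbols for every gene.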

How the data were processed

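Arrays of 3 pools, 1 per group, were compared. The deposited intensity values are Agilent Feature Extraction's processed signals, linear and corrected for background array by array, per the file headers. Version 9.5.3 is named in the submitters' processing notes and version 10.5.1.1 in the file headers. The deposited intensities were turned into log2 values, scaled by subtracting the log2 75th percentile of the array's non-control probes. This used limma 3.58.1 and data.table (version 1.17.8) in R 4.3.3. Python 3.11.15 with pandas 2.3.3 and numpy 2.4.6 counted genes, and matplotlib 3.10.9 drew the plots. No spot was saturated, and each Defb or Wfdc probe was printed once.

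Probes were matched to RefSeq symbols of GRCm38.p6, through the accession for 22951, the symbol for 6659 and a synonym for 3109, and 8455 remained under the array's own name. Of the 37 Defb and Wfdc probes, 35 matched by accession. A gene is represented by the probe of highest mean signal among those above background on some array. A ratio with 1 of its 2 arrays above background is a bound against the dimmer array's lowest detected signal, dropped where the detected level does not exceed that limit on the same scale, and one with neither was not formed. Every gene above background on some array is named, those past 2-fold with all their values, and up to 4 genes of each other list. With 1 array per group, the number of arrays limits precision, and no p-value can be had. The counting step was tested on simulated data. The genes and lists were chosen with earlier results of these data known. Alternatives were normexp correction, quantile and cyclic loess normalization, another percentile, both arrays above background, no filter and the median over probes. Scaling to spike-ins and centring on the median gene were added after the data were seen.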

Additional observations from a re-analysis of the deposited data

How the results depend on the processing

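In normal mated versus not mated, 6 genes were higher under the main scaling and 2 lower. The lower count became 1 with normexp correction, with cyclic loess and when both arrays had to be above background. In vasectomized mated versus not mated, 7 were higher and 2 lower. Spike-in scaling gave 3 higher and 5 lower, where of 18688 genes compared on the array 228 were higher and 16407 lower. No filter on dim probes gave 12 higher, normexp gave 0 lower and both arrays above background gave 1 lower. In normal versus vasectomized mated, 0 were higher and 5 lower. Quantile, cyclic loess and no filter each gave 1 higher, centring on the median gene 2 and spike-in scaling 8. Spike-in scaling left 1 lower and no filter gave 22. Of 19498 genes compared on the array with spike-in scaling, 15373 were higher and 252 lower. The unfiltered counts include probes that no array detected. The median ratio reversed to -0.0261 without a filter in normal mated versus not mated, to -0.49 with spike-in scaling in vasectomized mated versus not mated, and to 0.0086 with quantile and 1.69 with spike-in scaling in normal versus vasectomized mated. Single-gene ratios past 2-fold changed sign only with spike-in scaling, in Defb1 (-0.11), Wfdc12 (-0.72) and Wfdc15 (-0.27) in vasectomized mated versus not mated, and Defb2 (0.69), Defb14 (0.23) and Wfdc3 (0.19) in normal versus vasectomized mated. The cause was not tested. Of 251 single-gene values under an alternative, 158 moved by less than the software's signal error, 87 by more and 6 changed sign from past 2-fold. The median of all genes measured on both arrays was -0.06, 0.17 and -0.27 in the 3 comparisons, and -0.54, -2.48 and 1.90 with spike-in scaling. Among all genes past 2-fold, the share that was higher was 42.7%, 60.5% and 34.9%, against 17.5%, 1.37% and 98.4% with spike-in scaling. In normal mated versus not mated it was 59.4% with normexp and 53.0% with cyclic loess, and in vasectomized mated versus not mated 76.7% with normexp. No paired analysis was possible because each group has 1 array, and for the same reason no array could be left out. Genes near background, such as Defb2, Defb9, Defb11, Defb19 and Defb29, are limited by signal over background.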
